A study of Mus musculus with 4 samples.

Results

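The cells described here are the 109 blood cells that the authors placed in their cluster 9 and annotated as plasmablasts, of 5794 peripheral blood mononuclear cells in all. They were found by that annotation and cluster number alone, and every cell of cluster 9 carried the annotation. They were set beside the 3130 annotated B cells (author clusters 0, 1, 2 and 10) and the 340 annotated plasmablasts of cluster 6. In all, 474 cells were annotated as plasmablasts, 25 of them outside clusters 6 and 9. Blood came from 4 female wild-type C57BL/6 mice aged 3.2 ± 0.3 months, all anaesthetized with ketamine and xylazine. In 2 mice, called NTP mice, the left ear was irradiated for 10 min with non-thermal plasma (NTP, an ionized argon gas stream close to body temperature), and the 2 control mice were not exposed. Blood was drawn from the vena cava 120 min after irradiation, or after the onset of anaesthesia in control mice. The 2 NTP mice gave 28 and 29 cluster 9 cells, and the 2 control mice gave 22 and 30.

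Every mature B cell carries a receptor made of 2 immunoglobulin heavy chains and 2 light chains. The light chain is either kappa, whose constant region is encoded by Igkc, or lambda, encoded in the mouse by Iglc1, Iglc2 or Iglc3, and most mouse B cells use kappa. A plasmablast is a dividing B cell on the way to an antibody-secreting plasma cell; it makes the joining chain Jchain and large amounts of secretory machinery under the regulators Prdm1 and Xbp1. Newly made transitional B cells carry Cd93, Cd24a and Vpreb3, whereas resting follicular B cells carry surface IgD (Ighd) and the low-affinity IgE receptor Fcer2a (CD23).

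Cluster 9 cells held 355762 unique molecular identifiers (UMIs, counts of captured transcripts), with a median of 3037 per cell, against 3364 in B cells, 3464.5 in cluster 6 cells and 4429 in CD4+ T cells. The summed counts of cluster 9 were 105541 and 100361 UMIs in the NTP mice and 75013 and 74847 UMIs in the control mice. No barcode of a cluster 9 cell was found in another mouse, among 4 barcodes that mice shared. Levels are given below as CPM, the UMIs of a gene per 1000000 summed UMIs of a cell set, and ratios as log2 ratios of CPM within a mouse after adding 0.5 UMI. The clusters were made from the expression of these same cells, so differences between cluster 9 and other cells are descriptions, with no test.

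Genes of the B lineage were detected. The authors annotated clusters by known marker genes, so this is not an independent check of B lineage identity. Cd79a, the signalling chain of the B cell receptor, had a UMI in 99.1% of cluster 9 cells, 98.9% of B cells and 99.1% of cluster 6 cells, against 2.70% of CD4+ T cells, and Ighm, the IgM heavy chain, had one in 100% of cluster 9 cells. Ighm also had a UMI in 41.0% of CD4+ T cells, which should lack it. The plasmablast label did not hold. Jchain had no UMI in 109 cells, which allows a share of up to 2.75% of cells with a UMI, and Prdm1 and Derl3, an endoplasmic reticulum degradation factor, were also at 0. Sdc1, the plasma cell surface marker CD138, and Mki67, a marker of dividing cells, had 1 UMI each. These genes were rare in the other sets as well. After cells were thinned to equal UMI totals, Jchain was found in 0% of cluster 6 cells and 0.0324% of B cells. Prdm1 was found in 1.19% and 0.291%, Derl3 in 0.297% and 0.0324%, Sdc1 in 0.593% and 0.809% and Mki67 in 0.297% and 0.162%. Their low levels thus did not set cluster 9 apart from cluster 6, which shares the label. Xbp1 had a UMI in 7.34% of cluster 9 cells, 6.90% of B cells and 7.94% of cluster 6 cells. Of the 12 genes of the cell cycle list, 7 were at 0 in cluster 9: Top2a, Tyms, Birc5, Cdk1, Ccnb1, Ube2c and Rrm2. After the same thinning, each of these was found in at most 1.20% of B cells. Others of the list were detected. Hmgb2 had a UMI in 52.8% of cluster 9 cells and 50.9% of B cells, Pcna in 3.70% and 5.37%, Mcm5 in 1.85% and 1.23% and Stmn1 in 0.926% and 2.72%. Since the plasmablast label did not hold, the cells are called cluster 9 cells below.

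The largest ratios of cluster 9 over B cells were those of light chain genes. On GRCm38 (mm10), Iglc1 lies on the minus strand at chr16:19061618-19062071, Iglc3 at chr16:19065230-19065681 and Iglc2 at chr16:19198396-19200351, and Igkc lies on the plus strand at chr6:70726435-70726966. The last 120 coding bases of the 4 constant genes, each ending with the stop codon, are printed here because they show how far the genes can be told apart by their reads. They are from GENCODE vM21, at chr16:19061752-19061871 (Iglc1), chr16:19198536-19198655 (Iglc2), chr16:19065365-19065484 (Iglc3) and chr6:70726638-70726757 (Igkc). Capitals mark the 40 positions at which the 3 lambda genes are not all alike, and Igkc, which was left out of this marking, is in lower case.
Iglc1: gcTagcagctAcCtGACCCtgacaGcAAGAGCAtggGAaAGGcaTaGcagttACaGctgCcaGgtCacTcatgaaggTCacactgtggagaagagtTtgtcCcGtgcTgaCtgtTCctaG
Iglc2: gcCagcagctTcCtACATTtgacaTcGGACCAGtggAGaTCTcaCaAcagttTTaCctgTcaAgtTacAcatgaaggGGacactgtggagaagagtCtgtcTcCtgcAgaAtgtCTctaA
Iglc3: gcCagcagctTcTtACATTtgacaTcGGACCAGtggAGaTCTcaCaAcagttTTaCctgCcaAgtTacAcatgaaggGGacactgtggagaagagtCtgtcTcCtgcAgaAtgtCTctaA
Igkc: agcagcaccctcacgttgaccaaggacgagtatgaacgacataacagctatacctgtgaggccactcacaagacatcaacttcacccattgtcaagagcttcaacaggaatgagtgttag
Iglc1 and Iglc2 had 81 of these 120 bases in common, and Iglc2 and Iglc3 had 118. Over a single annotated transcript of each gene, Iglc1 shared no run of 30 bases with Iglc2, Iglc3 or Igkc. Iglc2 and Iglc3 shared 110 such runs and 43 runs of 50 bases, but none of 90, so shorter reads could be split between these 2 genes and their separate counts are uncertain.

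Iglc1 was the leading gene of cluster 9 and Igkc the gene that ranked first among the lower ones. Iglc1 stood at 4775 and 4514 CPM in cluster 9 cells of the NTP mice and at 4919 and 4142 CPM in those of the control mice, against 131 and 136 CPM and 101 and 146 CPM in B cells of the same mice. The log2 ratio of cluster 9 over B cells was 5.18 and 5.06 in the NTP mice and 5.61 and 4.82 in the control mice, with a mean of 5.17 ± 0.33 (SD, n = 4 mice). Igkc went the other way in all 4 mice, with 1639 and 1624 CPM in cluster 9 cells of NTP mice and 1440 and 1937 CPM in those of control mice. B cells of the same mice had 7522 and 7670 CPM and 6541 and 7315 CPM of Igkc, a mean log2 ratio of -2.13 ± 0.15. The 2 sets did not overlap for either gene.

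At the level of single cells, each cluster 9 cell had at least 2 Iglc1 UMIs (median 12, highest 112). An Iglc1 UMI was found in 24.5% of B cells, 81.2% of cluster 6 cells and 0.461% of CD4+ T cells. After each cell was thinned to 1500 UMIs, which left out 1 cluster 9 cell, 39 B cells and 3 cluster 6 cells, these shares were 97.2% in cluster 9, 13.1% in B cells and 69.4% in cluster 6. An Igkc UMI was found in 57.8% of cluster 9 cells, 98.9% of B cells and 95.0% of cluster 6 cells, against 1.85% of CD4+ T cells. Iglc1 exceeded Igkc in 89 of 109 cluster 9 cells, or 81.7% (95% Wilson interval 73.4 to 87.8), in 18 of 3130 B cells (0.575%) and in 38 of 340 cluster 6 cells (11.2%). In the single mice this share was 75.0% and 75.9% in the NTP mice and 95.5% and 83.3% in the control mice. Of the 149 cells with more Iglc1 than Igkc UMIs in clusters 0, 1, 2, 6, 9 and 10, cluster 9 held 59.7%. UMIs count molecules at the 3′ end of a transcript and were not scaled by length, and the intervals cover counting error only.

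**Figure D1:**
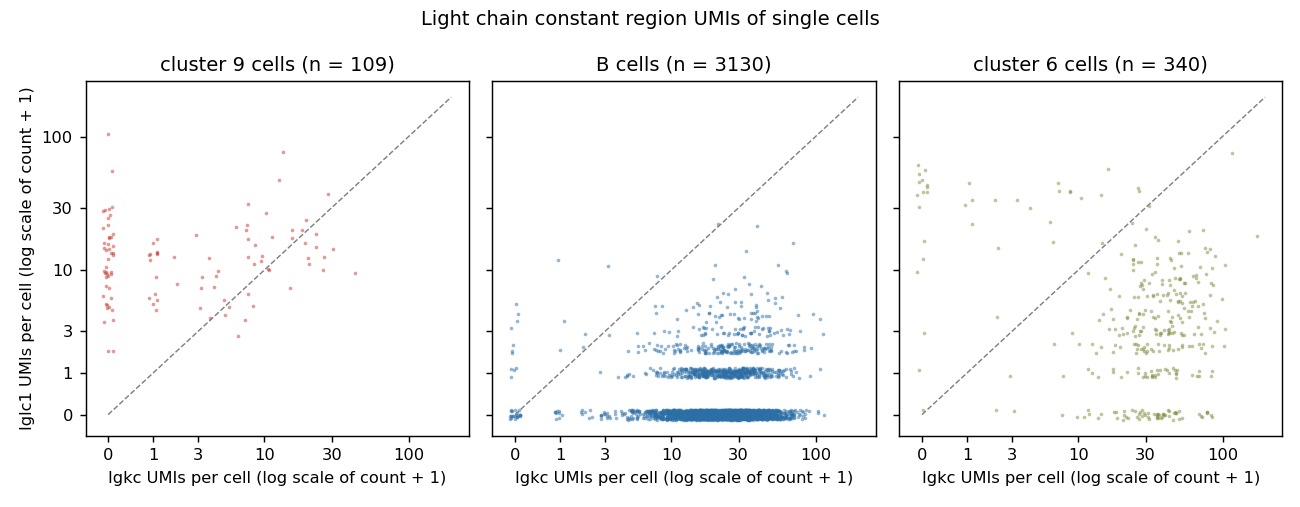
Iglc1 UMIs (vertical) against Igkc UMIs (horizontal) of each cell, both on a log scale of count + 1, in 109 cluster 9 cells, 3130 B cells and 340 cluster 6 cells, with points jittered and a dashed line where the counts are equal. Most cluster 9 cells (89) lie above the line, most B cells lie at or near 0 Iglc1 UMIs, and cluster 6 holds 38 cells above the line beside a larger group rich in Igkc.

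Cluster 9 was not uniform in its kappa transcripts. Of the 109 cells, 46 had no Igkc UMI, 41 had 1 to 9 and 22 had 10 or more. Median Iglc1 was 12 UMIs in the first of these classes, 9 in the second and 16 in the third, and the median total was 3201, 2685 and 3588.5 UMIs. Cells of all 3 classes came from each of the 4 mice, in uneven numbers. The 46 cells without Igkc came from the NTP mice (14 and 12) and the control mice (13 and 7). The 41 cells with 1 to 9 Igkc UMIs came from the NTP mice (7 and 11) and the control mice (5 and 18). The 22 cells with 10 or more Igkc UMIs came from the NTP mice (7 and 6) and the control mice (4 and 5). In CD4+ T cells, which should lack it, 1.85% had an Igkc UMI, and whether doublets contribute to the Igkc of cluster 9 cells was not tested.

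The other lambda genes did not follow Iglc1. Iglc2 averaged 5.94 UMIs per cell in cluster 9, 4.80 in B cells and 9.34 in cluster 6, and had a UMI in 96.3% of cluster 9 cells, 94.2% of B cells and 1.78% of CD4+ T cells. Its mean log2 ratio over B cells was 0.47 ± 0.19, higher in 4 of 4 mice. Iglc3, with 1.59 UMIs per cell in cluster 9 and 2.22 in B cells, had a mean log2 ratio of -0.37 ± 0.33. Summed over the 4 constant genes, the light chain level was close in both sets, with 8330 to 8774 CPM per mouse in cluster 9 and 8307 to 9936 CPM in B cells, and it was higher in cluster 6, with 14437 to 17344 CPM.

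Variable segments differed in the same direction as Iglc1 and Igkc, and the neighbouring non-coding transcripts did so at the kappa locus but not at the lambda locus. The 44 measured Igkv segments, which encode the kappa variable region, gave 8.26 UMIs per 100 cluster 9 cells, 51.4 per 100 B cells and 102 per 100 cluster 6 cells. The 3 measured Iglv segments gave 22.9 UMIs per 100 cluster 9 cells, 5.27 per 100 B cells and 15.9 per 100 cluster 6 cells. Most of the cluster 9 UMIs were of Iglv1, which had 19 UMIs in cluster 9 and log2 ratios over B cells between 2.87 and 5.11 in the 4 mice (mean 3.96). The 32 measured Ighv segments of the heavy chain were near each other, at 17.4, 13.7 and 17.4 UMIs per 100 cells of cluster 9, B cells and cluster 6. Gm30211, a non-coding RNA whose gene covers all 532 bases of Igkc on the same strand, had 56.2 CPM in cluster 9 and 204 CPM in B cells (mean log2 ratio -1.82 ± 0.61), and its reads may not be separable from those of Igkc. 2010309G21Rik, a non-coding RNA on the strand opposite to Iglc1, Iglc3, Iglj3 and Iglv1, had 28.1 CPM in cluster 9, 90.6 CPM in B cells and 242 CPM in cluster 6. It was lower in cluster 9 than in B cells in all 4 mice (mean log2 ratio -1.52 ± 0.50), opposite in direction to the Iglc1 gene that it spans.

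Apart from the light chain, cluster 9 cells and B cells were close. Of 4393 genes with a UMI in at least 10% of the cells of either set, 3 genes (0.0683%) were at least 2-fold higher in cluster 9 in all 4 mice and 4 (0.0911%) were at least 2-fold lower. The median log2 ratio over all 4393 genes was -0.04, and the middle 90% lay between -0.75 and 0.58. The 3 higher genes were Iglc1, Iglv1 and Spsb3, a ubiquitin ligase adaptor with 12 UMIs in cluster 9. The 4 lower genes were Igkc, Gm30211, Elk3 and Nampt. Iglv1 and Spsb3 passed the 10% filter only through cluster 9, and Gm30211, Elk3 and Nampt only through B cells. The filter therefore favoured the direction of these genes, whereas Iglc1 and Igkc passed in both sets. Elk3, a transcription factor of the ETS family, and Nampt, an enzyme of NAD synthesis, had 3 UMIs each in cluster 9. Their ratios to B cells were 0.189 for Elk3 (95% counting interval 0.0388 to 0.555) and 0.215 for Nampt (0.0442 to 0.633). These intervals cover counting error only. They do not cover the choice of the 2 genes by rank and filter, so they are no test of a difference. Next in rank among the higher genes were Pkd1, Trim23, Lage3, Selenop and Stam, with mean log2 ratios between 0.93 and 1.26 on 12 to 21 UMIs each. Of these, only Trim23 passed the filter in both sets. Next among the lower genes were 2010309G21Rik and Klf12, a transcriptional repressor with 16 UMIs and log2 ratios between -1.15 and -0.92 in the 4 mice. Klf12 passed the filter in both sets and 2010309G21Rik only through B cells.

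**Figure D2:**
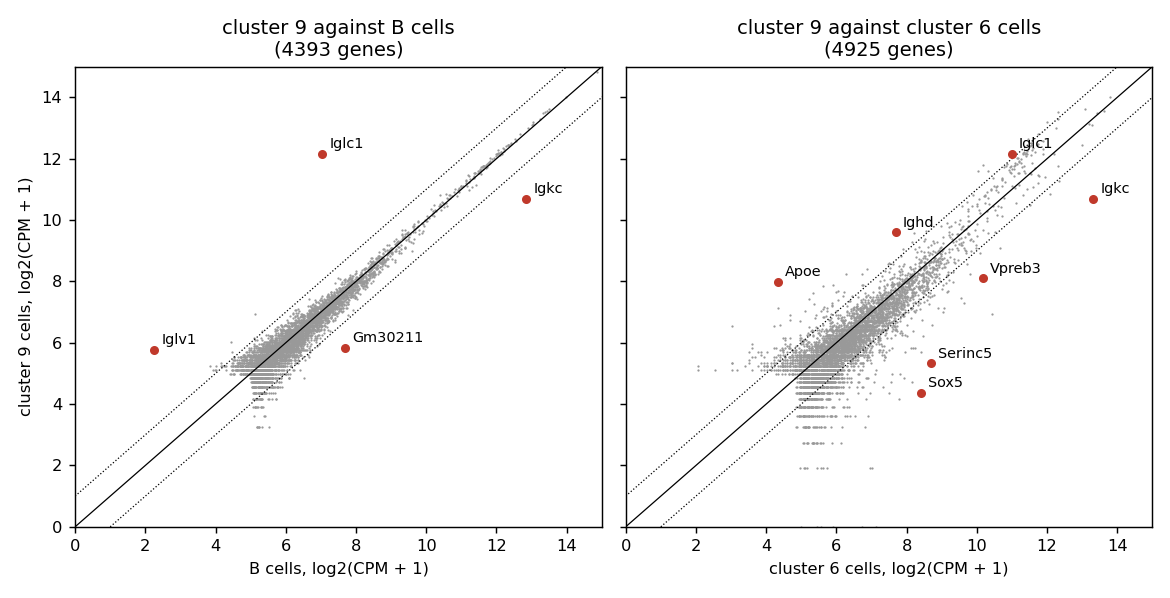
Level of each gene in cluster 9 cells (vertical, log2 of CPM + 1) against its level in B cells (left, 4393 genes) or in cluster 6 cells (right, 4925 genes), with a solid line at equality, dotted lines at 2-fold and named genes in red. Against B cells, Iglc1 and Iglv1 lie far above the line, and Igkc (at a high level) and Gm30211 lie below it. A few low genes that are not marked, such as Elk3 and Nampt, also lie below it. Against cluster 6 cells more genes lie off the line on both sides.

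Against cluster 6, which shares the plasmablast label, the distance was larger. Of 4925 genes compared in the same way, 39 (0.792%) were at least 2-fold higher in cluster 9 in all 4 mice and 89 (1.81%) at least 2-fold lower, with a median log2 ratio of -0.25. The higher genes included H2-Aa, H2-Ab1, H2-Eb1, H2-Oa, H2-DMb1 and H2-Eb2, genes of the MHC class II antigen presentation pathway. H2-Aa had 3657 and 3328 CPM in cluster 9 cells of NTP mice and 3919 and 3354 CPM in those of control mice, against 1160 and 1190 CPM and 1371 and 933 CPM in cluster 6 cells. That is a mean log2 ratio of 1.63, while the ratio of cluster 9 to B cells was 0.09 ± 0.15. Apoe, a lipid carrier, had 253 CPM in cluster 9, 19.1 in cluster 6 and 314 in B cells. Stat4, a transcription factor of cytokine signalling, had 118 CPM in cluster 9, 24.7 in cluster 6 and 218 in B cells. Gpr183, an oxysterol receptor that guides B cells in lymphoid tissue, had 230, 48.5 and 265 CPM in the same order. Apoe and Stat4 passed the filter only through cluster 9, so the filter favoured their direction, while Gpr183 passed in both sets. The ribosomal protein genes Rps21 and Rps24 were among the higher genes, and all ribosomal protein genes together took a median of 27.3% of the UMIs of a cluster 9 cell, 26.2% in B cells and 16.5% in cluster 6.

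The genes lower in cluster 9 than in cluster 6 were led by transcripts of varied function. Sox5, a transcription factor, had 19.7 CPM in cluster 9 and 339 in cluster 6, Akap12, a kinase anchor, had 25.3 and 283 CPM, and Serinc5 had 39.4 and 414 CPM. B cells were near cluster 9 for all 3, with 28.8 CPM of Sox5, 24.0 of Akap12 and 55.0 of Serinc5. Nedd4, Wfdc21, Map2, Cfp and Myb had no UMI in cluster 9. Like Sox5 and Akap12, they passed the filter only through cluster 6, so the filter favoured their lower level in cluster 9. Serinc5 passed in both sets. With 3 UMIs over cluster 9 as the floor, Nedd4, a ubiquitin ligase, was at least 12.5-fold lower than in cluster 6, Wfdc21 at least 16.4-fold and Myb, a transcription factor of blood cell precursors, at least 5.09-fold. Ms4a1, which encodes CD20, had 545 CPM in cluster 9, 522 in B cells and 1626 in cluster 6, and Ighm had 2490 CPM in cluster 9, 2237 in B cells and 5185 in cluster 6.

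**Figure D3:**
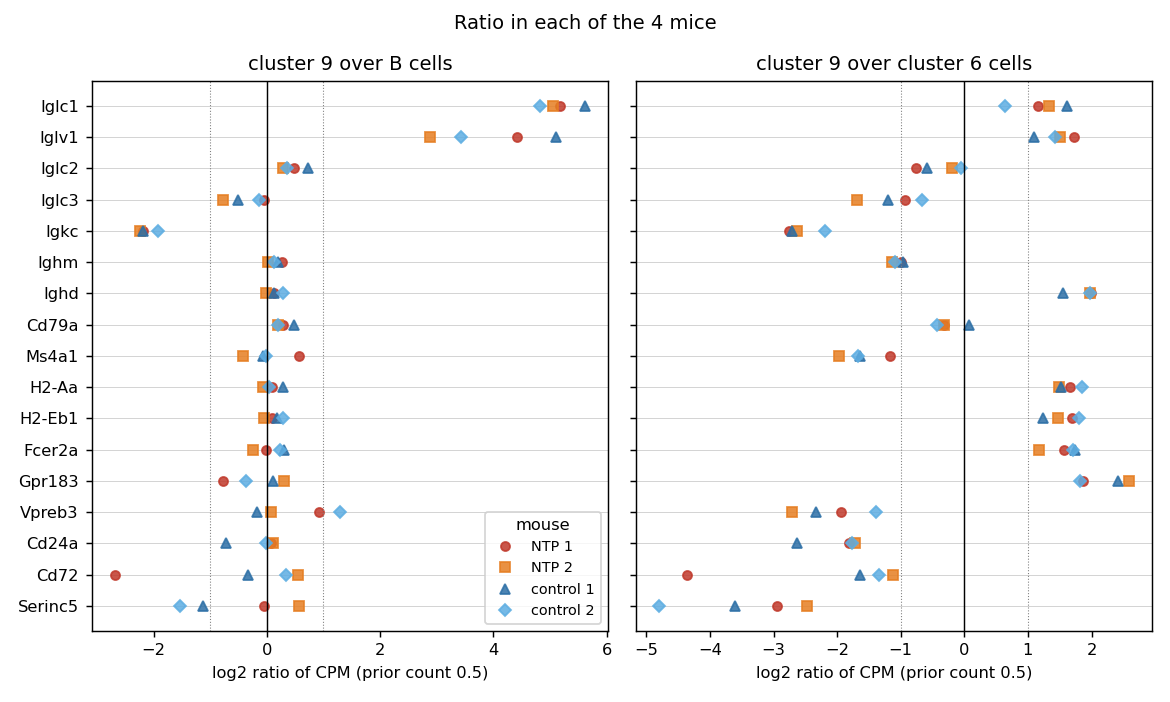
Log2 ratio of CPM of cluster 9 cells over B cells (left) and over cluster 6 cells (right) for 17 genes, 1 point for each of the 4 mice, with dotted lines at 2-fold. The left panel shows Iglc1 and Iglv1 far to the right, Igkc to the left and most other genes near 0 with wider scatter for Vpreb3, Cd72 and Serinc5, while in the right panel Ighd, H2-Aa, Fcer2a and Gpr183 lie beyond 2-fold to the right and Vpreb3, Cd24a, Cd72 and Serinc5 beyond it to the left in all 4 mice.

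Marker lists of B cell states were then read in the 3 sets. All 11 genes of the follicular naive list passed the 10% filter, with a median log2 ratio over B cells of -0.03, beside -0.04 over all genes. Ighd had 777 and 678 CPM in cluster 9 cells of NTP mice and 827 and 868 CPM in those of control mice. The other sets had 717 CPM of Ighd in B cells and 206 in cluster 6, so that cluster 9 lay above cluster 6 in all 4 mice (mean log2 ratio 1.87). Fcer2a had 340 CPM in cluster 9, 336 in B cells and 117 in cluster 6. Cxcr5, a receptor for follicle homing, and Ccr7, a receptor for lymph node homing, had mean log2 ratios over B cells of -0.30 ± 0.29 and 0.00 ± 0.25.

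Of the transitional list, 5 of 9 genes passed the filter against cluster 6. Cd93, Myb and Sox4 passed only through cluster 6, where they were high, so their lower level in cluster 9 was fixed by the filter. Vpreb3 and Cd24a passed in both sets and were at least 2-fold lower in cluster 9 in all 4 mice. Cd93 had a UMI in 0 of 109 cluster 9 cells, 1.21% of B cells and 10.6% of cluster 6 cells. Vpreb3, a partner of the precursor B cell receptor, had 273 CPM in cluster 9, 177 in B cells and 1149 in cluster 6, and Cd24a had 141, 151 and 533 CPM. Vpreb3 differed between mice within cluster 9, at 303 and 189 CPM in NTP mice and 147 and 468 CPM in control mice, and its mean log2 ratio over B cells of 0.53 ± 0.69 was below the spread of the mice.

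**Figure D4:**
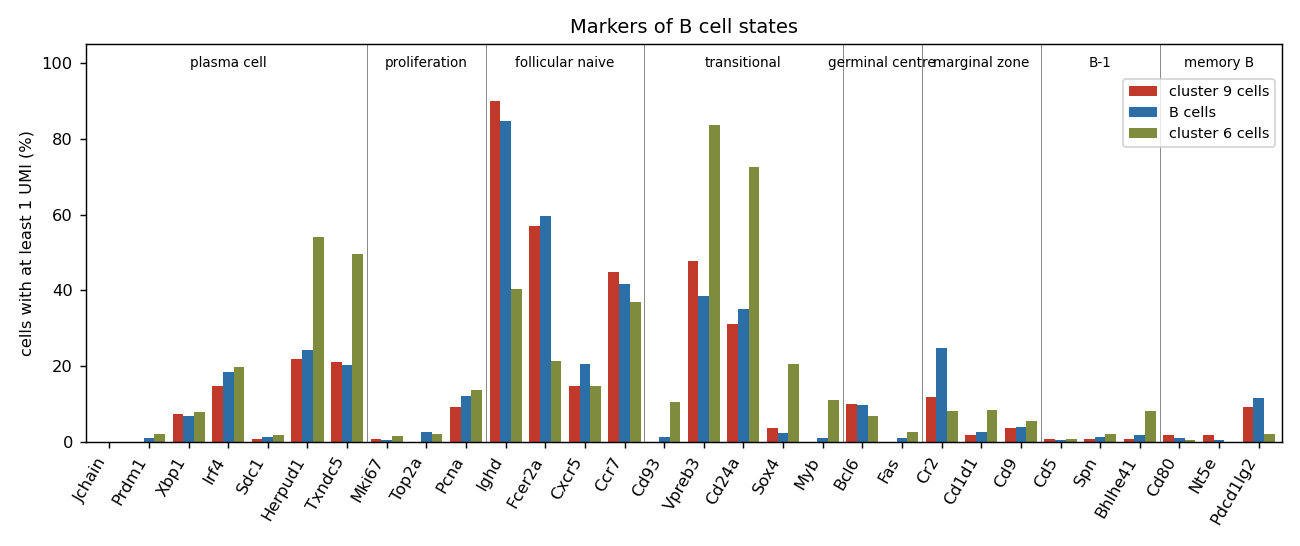
Share of cells with at least 1 UMI (%) for markers of 8 B cell states or programmes, in cluster 9 cells (red), B cells (blue) and cluster 6 cells (green). Against B cells, cluster 9 shows Vpreb3 in more cells (47.7% against 38.6%) and Cr2 in fewer (11.9% against 24.9%), and cluster 6 stands higher for Herpud1, Txndc5, Vpreb3, Cd24a and Sox4 and lower for Ighd and Fcer2a.

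In the other lists few genes passed the filter against B cells, with 2 of 10 in the germinal centre list, 2 of 12 in the B-1 list, 4 of 10 in the memory list and 1 of 9 in the age-associated list, so that most of their members were not compared. Of the plasmablast and plasma cell list, 12 of 20 genes passed, with a median log2 ratio of 0.11, beside -0.04 over all genes. Mzb1, a chaperone of IgM assembly shared with marginal zone B cells, had 219 CPM in cluster 9 and 181 in B cells (mean log2 ratio 0.34 ± 0.27, higher in 4 of 4 mice). Txndc5 and Herpud1, which act in protein folding and its quality control, had mean log2 ratios over cluster 6 of -1.50 and -1.82. Of the marginal zone list, 5 of 13 passed, and Cr2, the complement receptor CD21 that marginal zone and follicular B cells carry, was lower in all 4 mice (mean log2 ratio -1.04 ± 0.72) on 18 UMIs. Notch2, which directs the marginal zone fate, had a mean log2 ratio of -0.79 ± 1.03. Of the germinal centre list, Fas, a death receptor, was at 0, and Bcl6 had 13 UMIs. Of the B-1 list, Cd5, Spn and Bhlhe41 had 1 UMI each. Of the memory list, Cd80 had 3 UMIs, Nt5e 2 and Cd27 11, and of the age-associated list, Tbx21 and Itgax were at 0. Ighg2b and Igha, heavy chains made after class switching, were at 0 and Ighg3 had 1 UMI. Of the activation list, 7 of 19 passed the filter, with a median log2 ratio over B cells of -0.13. Cd86 and Cd83, carried by activated B cells, had mean log2 ratios of -0.13 ± 0.50 and -0.19 ± 0.49.

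Markers of other blood cells were rare in cluster 9. Summed over the 13 T cell markers, cluster 9 held 18.9 to 66.7 CPM per mouse, against at most 57.2 CPM in B cells, and 9 of the 13, among them Cd3e, Cd3g, Trac, Cd4 and Cd8a, were at 0. The NK cell markers summed to 0 to 9.47 CPM, the monocyte and macrophage markers to 0 to 47.4 and the neutrophil markers to 0 to 13.3. The red blood cell markers summed to 0 to 133 CPM, led by Hbb-bs with 11 UMIs in 1 NTP mouse and 1 in a control mouse.

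As a measure of likeness that leaves the receptor genes out, log2 CPM of 5011 genes without immunoglobulin genes was correlated between cluster 9 and each other set, after thinning all to 351497 UMIs. Pearson's r across genes was 0.936 for B cells of cluster 0, 0.923 for cluster 1, 0.915 for cluster 2, 0.904 for cluster 10, 0.855 for plasmablasts of cluster 6 and 0.662 for CD4+ T cells. The share of genes at least 2-fold apart was 6.59% for cluster 0 and 16.6% for cluster 6. Genes are not independent replicates, and the sets share the 4 libraries, so these values are descriptions.

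Treatment was compared over mice, 2 against 2. Cluster 9 made up 1.84% (95% Wilson interval 1.27 to 2.64) and 1.70% (1.19 to 2.43) of all cells in the NTP mice and 2.22% (1.47 to 3.33) and 1.91% (1.34 to 2.71) in the control mice. The mean difference was -0.29 percentage points, with all NTP values below all control values (exact two-sided permutation p = 0.333, the smallest that 2 against 2 allows). Among plasmablasts the shares were 17.3% and 20.4% in NTP mice and 31.0% and 30.3% in control mice (difference -11.8 points, exact two-sided permutation p = 0.333). This denominator includes cluster 6, which made up a larger share of all cells in both NTP mice than in either control mouse. The -11.8 points are therefore not a measure of cluster 9 alone, whose share of all cells differed by -0.29 points.

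In the expression of cluster 9 cells, 1 of 1323 genes (0.0756%) passed the adjusted threshold of 0.05 as lower in NTP mice and none (0%) as higher, by edgeR's quasi-likelihood test with Benjamini-Hochberg adjustment. At an unadjusted p under 0.05 there were 24 higher and 34 lower genes. DESeq2 called 0 genes (6 at an unadjusted p under 0.05), and limma-voom called 0 higher and 1 lower. The gene was Gm42418, a transcript that overlaps ribosomal RNA sequence, which fell to 14847 and 12704 CPM in NTP mice, against 21303 and 18825 CPM in control mice (log2 -0.55 ± 0.09 SE, adjusted p = 0.0330). The call was lost without either NTP mouse (adjusted p 0.971 and 0.936). Gm42418 had the same order in B cells, with 15647 and 13204 CPM in NTP mice and 19959 and 18275 CPM in control mice, and in cluster 6 cells, with 14098 and 11926 CPM in NTP mice and 18160 and 15260 CPM in control mice. NTP and control mice did not overlap for 188 genes higher in NTP (14.2%) and 221 lower (16.7%) of the 1323.

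Ifi27l2a, an interferon-inducible gene, came next. It had 786 and 777 CPM in cluster 9 cells of NTP mice, against 320 and 321 CPM in control mice (log2 1.28 ± 0.24 SE, adjusted p = 0.0676). UMIs of Ifi27l2a were found in 17 of 28 and 20 of 29 cells of NTP mice and in 11 of 22 and 12 of 30 cells of control mice, with at most 20 in 1 cell. B cells had 495 and 448 CPM in NTP mice and 428 and 501 CPM in control mice, and cluster 6 cells had 968 and 819 CPM in NTP mice and 1238 and 1267 CPM in control mice. In the test of the difference itself, the effect on Ifi27l2a in cluster 9 exceeded that in cluster 6 by 1.77 ± 0.33 SE on the log2 scale (adjusted p = 0.000588), and that in B cells by 1.31 ± 0.30 SE (adjusted p = 0.110). The first of these calls was lost without either control mouse (adjusted p 0.627 and 0.378) and with DESeq2 (adjusted p 0.144). Ly6a was the only other gene of the 14 in the interferon list that was tested (log2 0.65 ± 0.38 SE).

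Against B cells, none of 9111 genes (0% in either direction) differed in its treatment effect by edgeR at the adjusted threshold, with 274 at an unadjusted p under 0.05 and 0 by DESeq2. Against cluster 6, 2 of 3284 genes (0.0609%) had a higher effect in cluster 9 and none (0%) a lower one, and DESeq2 called 0. The 2 genes were Ifi27l2a and the haemoglobin gene Hbb-bs. Hbb-bs had 642 UMIs in cluster 6 cells of 1 control mouse, 610 of them in 1 cell, and without that mouse the difference was -1.26 (adjusted p = 0.974).

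No gene of the lists passed in cluster 9. Of 88 list genes tested, in 22 of the 31 lists, 9 had an unadjusted p under 0.05, 5 higher and 4 lower in NTP mice, beside 58 of all 1323 genes. Crip1, a small LIM protein of the S100, annexin and cytoskeletal list, had 1118 and 937 CPM in NTP mice, against 440 and 641 CPM in control mice (log2 0.92 ± 0.24 SE, adjusted p = 0.830). A Crip1 UMI was found in 71.4% and 72.4% of cells of NTP mice and 72.7% and 73.3% of those of control mice. In the first NTP mouse 1 cell held 42 of the 118 Crip1 UMIs. The highest count in a cell was 20 in the other NTP mouse and 7 and 6 in control mice. In the S100, annexin and cytoskeletal list, 6 of 7 genes tested had a positive log2 value, with a median of 0.61. Over all genes tested this held for 647 of 1323, with a median of -0.01. The light chain genes had log2 values of 0.03 ± 0.12 SE for Iglc1 and -0.06 ± 0.17 SE for Igkc. Of the 8 tested genes that the study links to its microRNAs, 6 had a positive log2 value, with a median of 0.03. With 22 to 30 cells a mouse, changes of weakly expressed genes were not detectable at this depth.

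**Figure D5:**
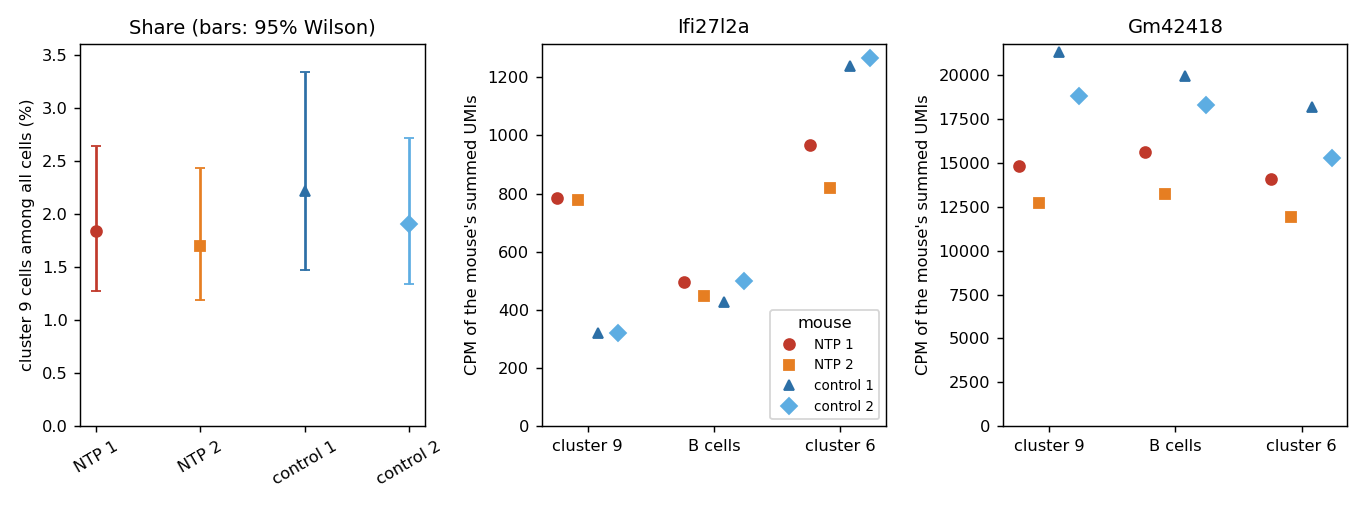
Left, share of cluster 9 cells among all cells of each mouse with 95% Wilson intervals; middle and right, CPM of Ifi27l2a and Gm42418 in cluster 9 cells, B cells and cluster 6 cells of each of the 4 mice. In cluster 9, Ifi27l2a is higher in both NTP mice (786 and 777 CPM) than in the control mice (320 and 321 CPM), while its NTP and control values overlap in B cells and lie the other way round in cluster 6, and Gm42418 is lower in both NTP mice in all 3 sets.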

How the data were processed

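Single-cell 3′ libraries of 4 mice were aligned to mm10 by the authors, with Cell Ranger 7.1.0 and Seurat 4.3.0 listed in the processing notes of the submitters. The authors deposited whole UMI counts per gene and cell (15093 genes, 5794 cells), with UMIs and genes per cell, the percent of mitochondrial UMIs as deposited, their clusters and their annotation. Per the study's methods, cells with 200 to 2500 genes and at most 10% mitochondrial reads were kept, ambient RNA was corrected and doublets were removed. The sources used here do not say whether the deposited counts precede the ambient correction, and no doublet caller was run again. UMIs and genes recounted here equalled the deposited values in all 5794 cells, and 0 of the value columns went unused.

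Counts were summed per mouse and cell set (4653719 to 7093148 UMIs per mouse over all cells), since the mouse is the replicate. Cluster 9 was set beside other cells by log2 ratios of CPM in each mouse (prior count 0.5). A gene was counted as higher or lower where the ratio was at least 2-fold the same way in all 4 mice, among genes with a UMI in at least 10% of the cells of either set. Treatment was tested with edgeR 4.0.16 in R 4.3.3 (TMM, filterByExpr, quasi-likelihood, Benjamini-Hochberg, threshold 0.05), and its difference between cell sets by an interaction term with the mouse as block. DESeq2 1.42.0, limma-voom 3.58.1, RLE scaling, no filter, equal numbers of cells (22 a mouse) and the omission of single mice were tried as well, the last for the interaction fits after seeing the data, and the fits were tested on simulated data. Standard errors were taken as the log2 change over the root of its F value. Members and gene lists were chosen with earlier results of these data known. Named genes were the leading genes by rank in the mouse nearest to 0, list members, the immunoglobulin constant genes, and for treatment the 5 smallest p per direction. The neighbouring genes at the light chain loci were added after values were seen. Sequences came from GENCODE vM21 by script.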

Additional observations from a re-analysis of the deposited data

Results flagged for a closer look

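In 2 genes the treatment effect in cluster 9 cells differed from that in cluster 6 cells by the interaction test (edgeR, adjusted p under the threshold). For Ifi27l2a the difference was 1.77 on the log2 scale. For Hbb-bs it was 7.99, with 11 and 0 UMIs in cluster 9 cells of NTP mice and 0 and 1 in those of control mice, against 30 and 11 UMIs in cluster 6 cells of NTP mice and 642 and 1 in those of control mice.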

How the results depend on the processing

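Between NTP and control mice in cluster 9, RLE scaling gave 1 higher gene (Ifi27l2a, adjusted p = 0.0404 by edgeR), and leaving out single mice gave 0 to 2 higher and 0 to 1 lower genes. DESeq2 gave 0 lower genes, and so did the fit with no filter on low counts (0). The adjusted p of Ifi27l2a was 0.569 by DESeq2 and 0.129 by limma-voom. By edgeR it was 0.838 with no filter and 0.299 with equal numbers of cells. For the difference from cluster 6, DESeq2 gave 0 higher genes, and leaving out single mice, which was chosen after seeing the data, gave 0 to 7 higher and 0 to 12 lower genes. There Hbb-bs ranged from -1.26 to 12.8 on the log2 scale. The difference in share was -0.80 points among B cells and plasmablasts and -11.8 among plasmablasts. Both denominators depend on cluster 6 as well, whose share of all cells was higher in both NTP mice than in either control mouse. Over B cells, 18 genes were higher and 14 lower at 1.5-fold, 16 and 7 with a UMI in at least 5% of cells, 9 and 8 with each cell thinned to 1500 UMIs, 6 to 11 and 5 to 13 without single mice, and 1 was higher without immunoglobulin genes. Over cluster 6, 109 genes were higher and 252 lower at 1.5-fold, 67 were higher with a UMI in at least 5% of cells, and 57 to 63 were higher and 124 to 150 lower without single mice. The rule asks for the same direction in all mice, so fewer mice let more genes pass, and the cause of the other changes was not tested. No paired analysis was possible because the labels give no replicate numbers that pair NTP with control mice. With 2 mice a group and 109 cells, depth limits the test to well expressed genes.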

Other observations

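Of the heat shock and oxidative stress list, 10 of 18 genes passed the 10% filter, with a median log2 ratio of cluster 9 over B cells of 0.01. For the glucocorticoid response list the median was 0.09 over 4 genes, and for the 15 genes the study links to miR-223-3p and to miR-451a it was -0.17, beside -0.04 over all 4393 genes. Among the 284 cells with 5 or more Iglc1 UMIs in clusters 0, 1, 2, 6, 9 and 10, cluster 6 held 133 and cluster 9 held 101.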
